A study of Bos taurus with 12 samples.

Results

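ENSBTAG00000019203 and ENSBTAG00000051079 are the rows of the bovine per-gene CPM table that held the first rank in several libraries. They were chosen by that level, the CPM values of the same 12 libraries, so their shares and ranks below are a description, given with no test. The set is 2 of the 22372 gene rows. Neither identifier is paired with a symbol in the RefSeq annotation used here, so the genes are named by their Ensembl identifiers, and their functions, positions and sequences were not analysed here.

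The study removed components of a serum-free adipogenic medium to see which of them the differentiation of bovine stromal vascular cells (SVC) needs. These cells are the non-fat fraction of adipose tissue, and the labels of the libraries call them MSC. The cells of 3 donors were cultured for 12 days in 4 media, which gave 12 libraries, 1 per medium and donor. The reads are long Nanopore reads of PCR-amplified cDNA. The complete medium, rDM (reduced differentiation medium), held insulin, rosiglitazone, hydrocortisone and progesterone. rDM 0% Ins lacked insulin, rDM 0% Ros lacked rosiglitazone, and rDM 0% HC/PR lacked both hydrocortisone and progesterone. All groups therefore shared the serum-free base medium and 12 days of culture, and no group was left undifferentiated in growth medium. The donors A, B and C are the replicates and coincide with the 3 batches given in the labels, so the donor and the batch cannot be told apart. The cells were a mixed primary population and not a clone, and the markers of adipocytes and of stromal cells were not analysed here.

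Adipocyte differentiation is driven by the nuclear receptor PPARγ together with C/EBP transcription factors. Rosiglitazone is a PPARγ ligand, insulin acts through its receptor on glucose uptake and lipid synthesis, and hydrocortisone is a glucocorticoid. As progenitors become adipocytes they start to make large amounts of a few messengers for lipid handling, while messengers of the stromal state, such as those of the matrix and the cytoskeleton, become less abundant. CPM values, counts scaled to the same sum in each library, are shares of a fixed total. When a very abundant row takes more of a library, every other row of that library is given a smaller CPM value although its own reads have not changed.

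The authors corrected the reads per gene for the batch and deposited them as CPM. Each column summed to 1000000, and every value was a whole multiple of 1 read. The reads recovered in this way were 1107442, 661665 and 416277 in rDM (donors A, B and C), 555265, 447821 and 295288 in rDM 0% Ins, 527409, 326729 and 381398 in rDM 0% Ros, and 602243, 375896 and 523293 in rDM 0% HC/PR. The rDM library of donor A was thus the deepest and the rDM 0% Ins library of donor C the shallowest. A member row rested on 6713 to 34306 reads in each library, and the 95% exact binomial interval of its share was 0.0237 to 0.0881 percentage points wide on either side. Molecules copied by PCR are not independent, so these intervals hold for counting error alone, and they are narrower than the spread between donors in every medium. The values are shares of reads and not levels per length, so the rows are set beside each other to compare media and not to say which gene makes more RNA.

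ENSBTAG00000019203 took 1.63%, 2.83% and 3.20% of the reads in rDM from donors A, B and C. In rDM 0% Ins it took 4.16%, 2.47% and 2.27%. In rDM 0% Ros it took 3.56%, 7.08% and 7.03%. In rDM 0% HC/PR it took 2.75%, 2.07% and 2.59%. The libraries of donors B and C without rosiglitazone stood well above all others, and the remaining library of that medium, from donor A, was also above each rDM library but below the insulin-free library of the same donor. The means were 5.89% ± 2.02 (SD, n = 3) in rDM 0% Ros, 2.97% ± 1.04 (SD, n = 3) in rDM 0% Ins, 2.55% ± 0.817 (SD, n = 3) in rDM and 2.47% ± 0.354 (SD, n = 3) in rDM 0% HC/PR. The libraries of the last 3 media in this order overlapped. Over the 12 libraries the highest share was 4.34 times the lowest.

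ENSBTAG00000051079 took 3.10%, 3.39% and 4.07% of the reads in rDM from donors A, B and C. In rDM 0% Ins it took 3.83%, 4.24% and 2.76%. In rDM 0% Ros it took 3.81%, 3.03% and 2.88%. In rDM 0% HC/PR it took 2.92%, 2.81% and 3.07%. The libraries of the media overlapped, except that each of the 3 libraries without HC/PR lay below each of the rDM libraries, the closest pair being 3.07% and 3.10%. The means were 3.61% ± 0.764 (SD, n = 3) in rDM 0% Ins, 3.52% ± 0.500 (SD, n = 3) in rDM, 3.24% ± 0.502 (SD, n = 3) in rDM 0% Ros and 2.93% ± 0.129 (SD, n = 3) in rDM 0% HC/PR. Neighbours in this order differed by less than the larger of their SDs. The highest of the 12 shares was 1.54 times the lowest.

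**Figure D1:**
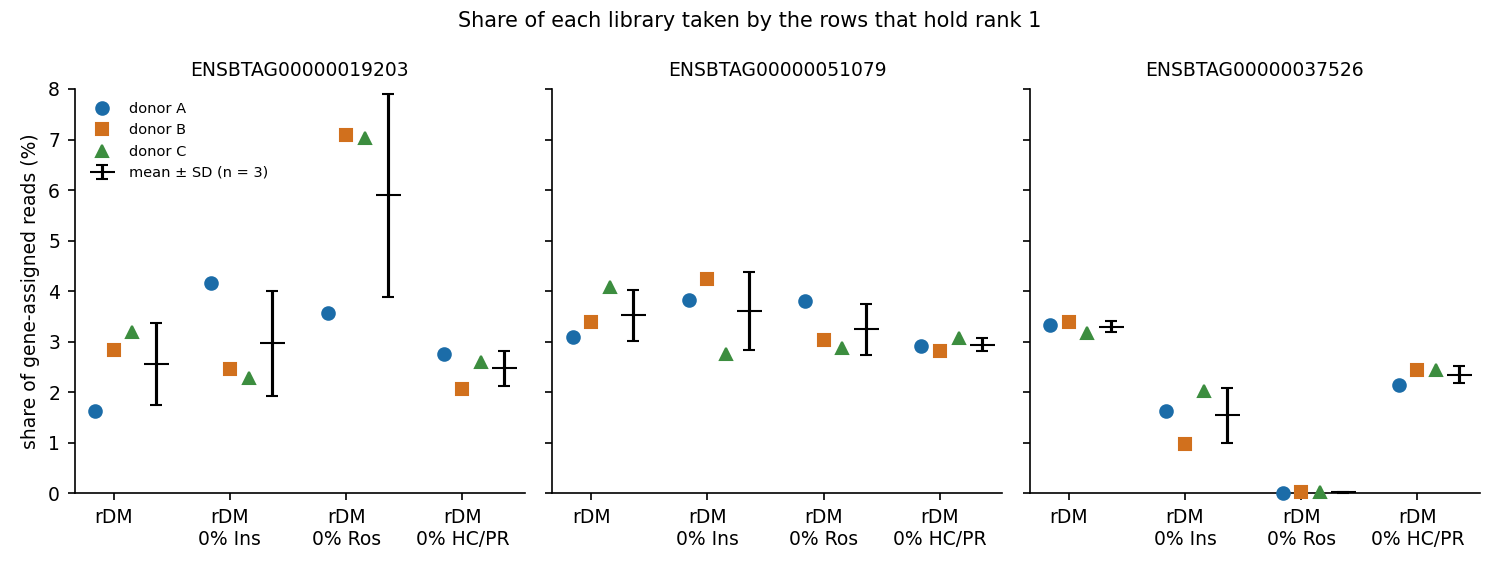
Share of gene-assigned reads in percent (vertical axis, linear, from 0) by medium for ENSBTAG00000019203, ENSBTAG00000051079 and the third row that held the first rank, ENSBTAG00000037526. Points are libraries, marked by donor, and bars are the mean ± SD of 3 donors: ENSBTAG00000019203 reached 7.08% and 7.03% without rosiglitazone, ENSBTAG00000051079 stayed between 2.76% and 4.24% in all media, and ENSBTAG00000037526 was near 0 without rosiglitazone.

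In the order of the rows, ENSBTAG00000051079 was first in 7 libraries and second in the other 5. ENSBTAG00000019203 was first in 3 libraries, second in 6 and at rank 3 in 3. In rDM, ENSBTAG00000051079 ranked 2, 2 and 1 in donors A, B and C, and ENSBTAG00000019203 ranked 3, 3 and 2. In rDM 0% Ins, ENSBTAG00000051079 ranked 2, 1 and 1, and ENSBTAG00000019203 ranked 1, 2 and 2. In rDM 0% Ros, ENSBTAG00000051079 ranked 1, 2 and 2, and ENSBTAG00000019203 ranked 2, 1 and 1. In rDM 0% HC/PR, ENSBTAG00000051079 ranked 1 in each donor, and ENSBTAG00000019203 ranked 2, 3 and 2. The 2 rows were therefore the 2 most abundant of the table in 9 libraries, including all of those without rosiglitazone.

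The first rank was held by 3 genes in all. The other one, ENSBTAG00000037526, was first in the rDM libraries of donors A and B, and it is the row just outside the set. It took 3.30% ± 0.109 (SD, n = 3) of the reads in rDM, 2.34% ± 0.167 (SD, n = 3) in rDM 0% HC/PR, 1.54% ± 0.536 (SD, n = 3) in rDM 0% Ins and 0.0210% ± 0.0103 (SD, n = 3) in rDM 0% Ros, where its lowest rank was 995. The next row, ENSBTAG00000005654, took 0.777% to 1.24% of the reads and ranked between 3 and 10. The mean share over the 12 libraries was 3.47% for ENSBTAG00000019203 and 3.33% for ENSBTAG00000051079, followed by 1.80% for ENSBTAG00000037526 and 1.03% for ENSBTAG00000005654. Together, the members and ENSBTAG00000037526 were the 3 highest rows of 8 libraries.

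Among the 20 rows with the highest mean CPM, the coefficient of variation over the 12 libraries ran from 9.85% to 71.0%, with a median of 17.0%. For ENSBTAG00000051079 it was 15.8%, the 8th lowest of the 20, and for ENSBTAG00000019203 it was 52.0%, the 17th lowest. The members thus had nearly the same mean share, and ENSBTAG00000019203 varied more between libraries.

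The change of each row against rDM was taken within each donor and then tested with limma on log2(CPM + 1), with the donor as a block, over the 9267 genes that reached 5 CPM in 3 or more libraries and with Benjamini-Hochberg adjustment over all of them. The limma estimates and the log2 changes of the gene rows are on this log2 scale. Fold changes of single donors are plain ratios of CPM. Both members passed the filter in every library. The members were picked for their level in the same 12 libraries and not for a contrast, but ENSBTAG00000019203 was first in 2 of the libraries without rosiglitazone, so its rise there is not independent of the choice. The deprived media were all compared with the same rDM libraries. In a bulk library fewer cells of a type and less RNA per cell cannot be told apart.

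Without rosiglitazone, ENSBTAG00000019203 was 2.18-fold, 2.50-fold and 2.20-fold as high as in rDM of donors A, B and C. The log2 changes were 1.13, 1.32 and 1.14. These are batch-corrected values, and the uncorrected transcript nearest to this row in level, ENSBTAT00000025561.4, had log2 changes of 1.39, 0.78 and 1.24. The limma estimate was 1.20 (standard error 0.33, 95% interval 0.48 to 1.91), which is 2.29-fold with an interval from 1.40 to 3.76. Its unadjusted p was 0.00304, the 506th smallest of the genes tested, and its adjusted p of 0.0556 from limma missed the threshold of 0.05. In this comparison limma called 470 genes, 167 higher and 303 lower, which is 5.07% of the genes tested. ENSBTAG00000019203 was thus not among them. The call depended on settings, since the adjusted p was under the threshold in 7 of 22 alternatives and the direction was up in each of the 22, with adjusted p-values from 0.0125 (limma on the 6 libraries of the comparison) to 0.473 (DESeq2). The 3 libraries without rosiglitazone did not overlap the 3 of rDM for ENSBTAG00000019203, as for 26.8% of the genes tested. In donor A the row was also higher than in rDM without insulin (2.55-fold) and without HC/PR (1.68-fold). Its share in rDM of that donor, 1.63%, was the lowest of the 12 libraries.

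ENSBTAG00000051079 was 1.23-fold, 0.894-fold and 0.707-fold as high without rosiglitazone as in rDM of donors A, B and C. The donors thus moved in different directions. The limma estimate was -0.12 (standard error 0.22, 95% interval -0.60 to 0.36, adjusted p = 0.862), and the interval covers 0.66-fold to 1.28-fold. A change of 2-fold in either direction lies outside this interval. The row just outside the set moved the other way from ENSBTAG00000019203, since the log2 change of ENSBTAG00000037526 without rosiglitazone was -7.40 (standard error 0.27, adjusted p = 3.13e-09 from limma).

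Without insulin, ENSBTAG00000019203 was 2.55-fold, 0.872-fold and 0.711-fold as high as in rDM of donors A, B and C, so it was higher in donor A and lower in the other donors. The limma estimate was 0.22 (standard error 0.33, 95% interval -0.49 to 0.93, adjusted p = 0.840). ENSBTAG00000051079 was 1.25-fold as high in donor B, 1.24-fold in donor A and 0.677-fold in donor C, with a limma estimate of 0.02 (standard error 0.22, 95% interval -0.46 to 0.50, adjusted p = 0.980). Neither was called, and limma called 140 genes, 61 higher and 79 lower, which is 1.51% of those tested. For both rows the libraries of rDM 0% Ins overlapped those of rDM, whereas 23.4% of the genes tested did not overlap in this comparison.

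Without HC/PR, ENSBTAG00000019203 was 1.68-fold, 0.732-fold and 0.809-fold as high as in rDM of donors A, B and C, and the limma interval of its log2 change ran from -0.72 to 0.71, or 0.609-fold to 1.64-fold. ENSBTAG00000051079 was 0.943-fold, 0.829-fold and 0.754-fold as high, lower in each of the 3 donors. The limma estimate for it was -0.25 (standard error 0.22, 95% interval -0.73 to 0.22, adjusted p = 0.998), or 0.602-fold to 1.17-fold. Neither was called here, where limma called 2 genes, 0.0216% of those tested, and 498 genes had an unadjusted p under 0.05. In the corrected table the libraries of ENSBTAG00000051079 without HC/PR did not overlap those of rDM, as was true of 15.5% of the genes tested. Without the rDM library of donor C the estimate was -0.068, and in the uncorrected transcript nearest to the row in level, ENSBTAT00000067104.1, the libraries of the 2 media overlapped. Within donors A, B and C this transcript was nonetheless lower without HC/PR, with log2 changes of -0.13, -0.29 and -0.16. Its edgeR estimate was -0.25 (unadjusted p = 0.372).

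Contrasts among the deprived media followed the same fit. ENSBTAG00000019203 was higher in rDM 0% Ros than in rDM 0% Ins by 0.98 on the log2 scale (adjusted p = 0.198 from limma) and higher than in rDM 0% HC/PR by 1.20 (adjusted p = 0.0911 from limma). For ENSBTAG00000051079 these differences were -0.14 (adjusted p = 0.857) and 0.13 (adjusted p = 0.870). Between rDM 0% Ins and rDM 0% HC/PR the difference was 0.22 for ENSBTAG00000019203 and 0.28 for ENSBTAG00000051079 (adjusted p = 0.671). None of these passed the threshold, while limma called 2.07%, 2.55% and 1.12% of the genes tested in the 3 comparisons in the order given. For ENSBTAG00000019203 this depended on settings. The difference to rDM 0% HC/PR passed without the block (adjusted p = 0.0495) and without donor A (1.61, adjusted p = 0.0185), and that to rDM 0% Ins passed without donor A (1.58, adjusted p = 0.0145) and without the insulin-free library of donor A (1.43, adjusted p = 0.0293), all from limma.

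**Figure D2:**
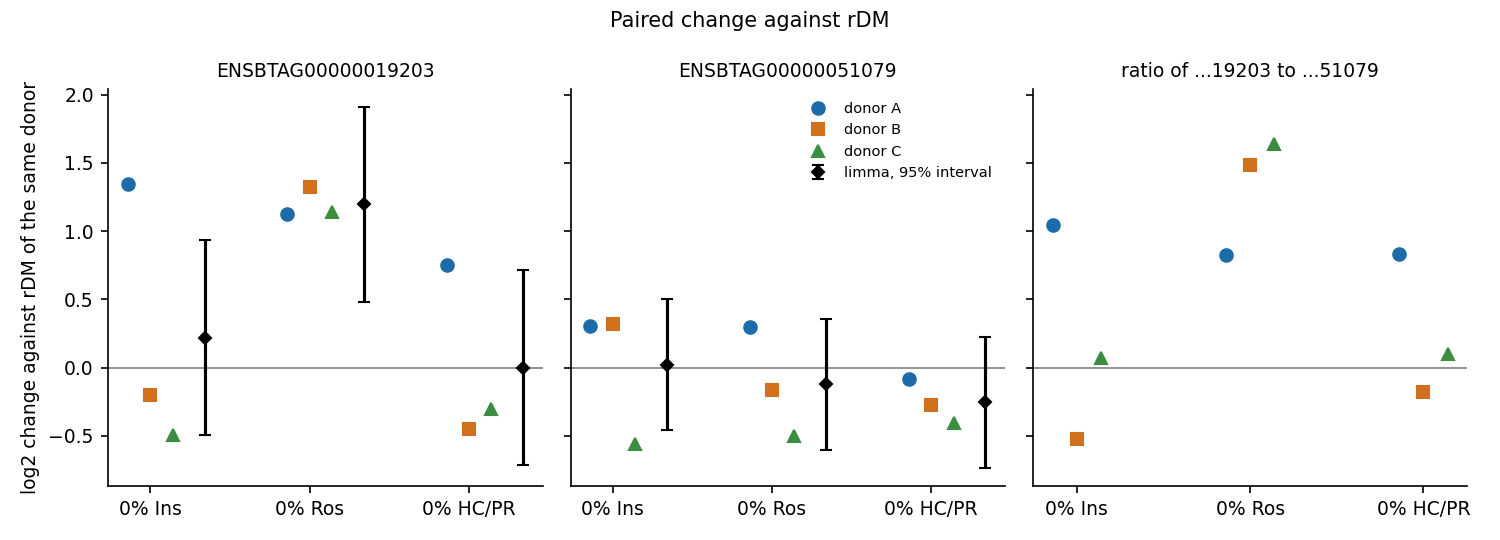
Log2 change against rDM of the same donor (vertical axis, linear) for each deprived medium, for ENSBTAG00000019203, ENSBTAG00000051079 and the ratio of the former to the latter. Coloured points are donors and black diamonds are limma estimates with 95% intervals: without rosiglitazone the 3 donors lie between 1.13 and 1.32 for ENSBTAG00000019203, and on both sides of 0 for ENSBTAG00000051079.

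Since both rows share a library's total, their ratio does not depend on what the rest of the library holds. ENSBTAG00000019203 had 0.527, 0.834 and 0.785 times the reads of ENSBTAG00000051079 in rDM of donors A, B and C. Without insulin the ratios were 1.09, 0.582 and 0.824, and without HC/PR they were 0.940, 0.736 and 0.843. Without rosiglitazone they were 0.935, 2.34 and 2.44. The ratio was thus above 1 in 3 libraries, one of them without insulin, and the mean without rosiglitazone was 1.91 ± 0.842 (SD, n = 3) against 0.715 ± 0.165 (SD, n = 3) in rDM. Its log2 change without rosiglitazone was 0.83, 1.49 and 1.64 in donors A, B and C. Donor A changed by a like amount without HC/PR, 0.83, and by 1.04 without insulin, so in that donor the ratio was higher in every deprived medium. In rDM the library of donor A had the lowest ratio of the 12. It was also the deepest library. All these ratios are of batch-corrected rows. In the uncorrected transcripts nearest in level, ENSBTAT00000025561.4 exceeded ENSBTAT00000067104.1 also in rDM of donor B (2.45% against 2.41%). The same held in rDM 0% HC/PR of donor B (2.05% against 1.97%). Without rosiglitazone the log2 changes of these transcripts in donor B were 0.78 and -0.17.

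Over the 12 libraries, log2(CPM + 1) of the 2 rows had a Pearson correlation of 0.02 and a Spearman correlation of 0.189, a description of libraries that share donors, media and the batch correction. Among 4132 genes with a mean of at least 20 CPM, the gene most like ENSBTAG00000019203 was ENSBTAG00000011317, with a Pearson correlation of 0.93 (Spearman 0.944, n = 12 libraries). It was at 179, 249 and 267 CPM in rDM, at 310, 243 and 220 CPM without insulin, at 311, 370 and 346 CPM without rosiglitazone and at 244, 231 and 197 CPM without HC/PR. Like ENSBTAG00000019203, it had its lowest value in the rDM library of donor A and its highest in the rosiglitazone-free library of donor B. The gene with the most opposite pattern was ENSBTAG00000010480, with a Pearson correlation of -0.92 (Spearman -0.839), which was at 6.12 and 10.5 CPM in the rosiglitazone-free libraries of donors B and C and between 18.0 and 31.9 CPM in the other 10. The value of 6.12 CPM lies under the 9.18 CPM that 3 reads are worth in that library. A Pearson correlation over 0.8 was found for 13 genes and one under -0.8 for 59.

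For ENSBTAG00000051079 the gene most alike was ENSBTAG00000021632, with a Pearson correlation of 0.86 (Spearman 0.748), and the most opposite was ENSBTAG00000048965, at -0.82 (Spearman -0.881). The values of ENSBTAG00000021632 ran from 8.30 to 55.3 CPM and so rest in part on few reads. The lowest was in rDM 0% HC/PR of donor A, where 3 reads are worth 4.98 CPM. The numbers of genes over 0.8 and under -0.8 were 4 and 2. ENSBTAG00000051079 varied little, so its correlations rest on a narrow range.

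The 2 rows together took 4.73%, 6.22% and 7.27% of the reads in rDM, 7.98%, 6.70% and 5.03% in rDM 0% Ins, 7.38%, 10.1% and 9.91% in rDM 0% Ros, and 5.67%, 4.88% and 5.66% in rDM 0% HC/PR. The means were 9.13% ± 1.52 (SD, n = 3) in rDM 0% Ros, 6.57% ± 1.48 (SD, n = 3) in rDM 0% Ins, 6.07% ± 1.28 (SD, n = 3) in rDM and 5.40% ± 0.451 (SD, n = 3) in rDM 0% HC/PR. Without the 2 rows in the total, every other CPM value of a library would be higher, by between 4.97% and 11.2% depending on the library, with a median of 6.91%. The raise was 10.1% ± 1.83 (SD, n = 3) without rosiglitazone and 6.48% ± 1.44 (SD, n = 3) in rDM. In rDM 0% Ins it was 7.05% ± 1.69 (SD, n = 3), and in rDM 0% HC/PR it was 5.71% ± 0.502 (SD, n = 3).

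In a comparison with rDM only the difference between these raises counts. It put the other rows lower by 0.04, 0.06 and 0.04 on the log2 scale in donors A, B and C without rosiglitazone. In rDM 0% Ins and rDM 0% HC/PR it was no larger than 0.05 in either direction, and over all 9 pairs its size was between 0.00747 and 0.0612. The fall of ENSBTAG00000037526 without rosiglitazone went the other way in the total. With it included, the 3 rows took 9.15% ± 1.53 (SD, n = 3) without rosiglitazone and 9.37% ± 1.22 (SD, n = 3) in rDM, and the shift of the remaining rows was no more than 0.01 in size in each donor without rosiglitazone. In rDM 0% Ins and rDM 0% HC/PR the 3 rows took 8.11% ± 1.33 (SD, n = 3) and 7.74% ± 0.394 (SD, n = 3). The 10 rows with the highest mean took between 12.8% and 18.7% of a library, with a median of 15.0%.

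**Figure D3:**
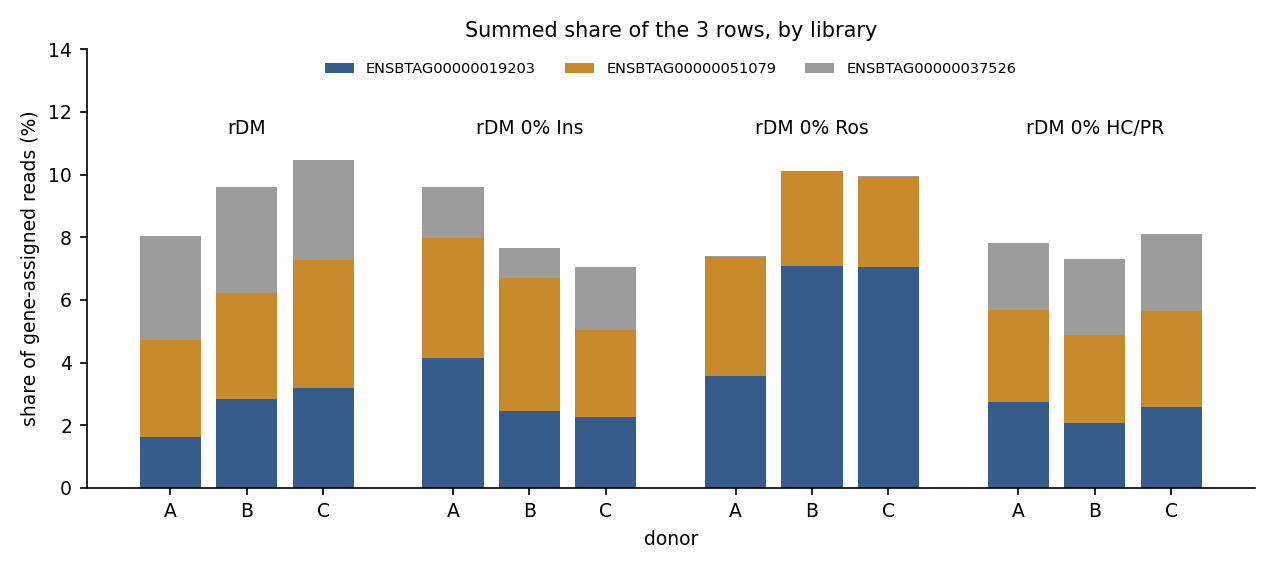
Stacked share of gene-assigned reads in percent (vertical axis, from 0) of ENSBTAG00000019203, ENSBTAG00000051079 and ENSBTAG00000037526 in each library, by medium and donor. The 2 members reach 10.1% and 9.91% in the rosiglitazone-free libraries of donors B and C, where ENSBTAG00000037526 is all but missing, so that the 3 rows together take 9.15% on average without rosiglitazone and 9.37% in rDM.

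The number of genes called and their direction were also computed with the 2 rows left out of the library size. Without rosiglitazone limma then called 480 genes in place of 470, and 39.8% of them were higher in place of 35.5%. Without insulin it called 143 in place of 140, and without HC/PR it called 2 as before. Between rDM 0% Ros and rDM 0% HC/PR it called 229 in place of 236, and 36.2% of them were higher in place of 30.9%. Taking the 10 highest rows out gave 489 and 139 calls without rosiglitazone and without insulin, and 2 in the remaining comparison. TMM scaling sets the library size from the bulk of the genes. With TMM, 32.0% of the genes called without rosiglitazone were higher, and 30.4% of those called between rDM 0% Ros and rDM 0% HC/PR. In both cases the share moved down, opposite to the move with the 2 rows left out, and by less. In the comparisons with rDM 0% Ins the move was larger with TMM, where 25.3% of the 146 genes called without insulin were higher, in place of 43.6%. The share also moved from 28.6% to 40.0% higher between rDM 0% Ros and rDM 0% Ins, and from 57.7% to 43.7% higher between rDM 0% Ins and rDM 0% HC/PR. The TMM factors of the 12 libraries lay between 0.875 and 1.20, and they shifted single pairs with rDM by up to 0.388 on the log2 scale, the largest shift being in donor B without insulin. Over all genes tested, the log2 fold change had a median of 0.19 without insulin and 0.10 without rosiglitazone, and of 0.00 for HC/PR, so relative to this median ENSBTAG00000019203 changed by 1.09 without rosiglitazone and by 0.03 without insulin, and ENSBTAG00000051079 by -0.22 and -0.17.

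The CPM table was batch-corrected over all libraries, and the authors' estimated reads per transcript, deposited for each library, were not. The tables used here do not pair transcripts with genes, so the transcripts are given as those nearest in level to each row over the 12 libraries and not as its transcripts. Of 20 transcripts with a mean share of at least 0.5%, ENSBTAT00000025561.4 (627 bases) was nearest to ENSBTAG00000019203, at an average distance of 1.13-fold and with a Pearson correlation of 0.912 over the 12 libraries. ENSBTAT00000067104.1 (638 bases) was nearest to ENSBTAG00000051079, at 1.25-fold, but with a Pearson correlation of 0.42, so this match is the weaker one and the comparison of the 2 below rests on it. The transcript ENSBTAT00000067104.1 was the most abundant in 6 libraries, ENSBTAT00000025561.4 in 3 and ENSBTAT00000000079.4 in 3.

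ENSBTAT00000025561.4 took 1.65%, 2.45% and 3.12% of the estimated reads in rDM of donors A, B and C, and 4.32%, 4.22% and 7.36% in rDM 0% Ros. It took 5.04%, 2.23% and 2.09% in rDM 0% Ins and 3.07%, 2.05% and 2.43% in rDM 0% HC/PR. Before the correction the highest 3 shares were thus in donor C without rosiglitazone, donor A without insulin and donor A without rosiglitazone. The fold change without rosiglitazone was 2.62, 1.72 and 2.36 in donors A, B and C. Its estimate in edgeR's quasi-likelihood test was 0.96 on the log2 scale (adjusted p = 0.350, unadjusted p = 0.0386, 10268 transcripts tested), and it was not among the 2.15% of transcripts called. Without insulin the fold changes were 3.07, 0.909 and 0.668, and without HC/PR they were 1.86, 0.837 and 0.779, in each case higher in donor A and lower in the others.

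The corrected row and the uncorrected transcript differed most in the rosiglitazone-free library of donor B, where ENSBTAG00000019203 had 7.08% and ENSBTAT00000025561.4 had 4.22%. The ratio of these shares was 1.68, and in the other libraries of donor B it was at least 1.01. It was between 0.824 and 0.993 in donor A and between 0.955 and 1.09 in donor C. ENSBTAT00000025561.4 was the most abundant transcript of this library, so no other transcript of it had a share of 7.08%. Whether the medium was given to the correction is not stated in the sources used here. When ComBat-seq was run over the donors on the transcripts, the rosiglitazone-free shares of ENSBTAT00000025561.4 became 3.99%, 5.21% and 7.12% with the medium given, and 4.16%, 6.14% and 6.22% without it. Neither setting gave 7.08% in donor B. These runs were on single transcripts and the deposited rows are sums per gene, so they cannot show which setting the authors used.

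ENSBTAT00000067104.1 took 3.51%, 2.41% and 4.08% of the estimated reads in rDM of donors A, B and C, 4.68%, 2.90% and 3.49% in rDM 0% Ins, 4.80%, 2.14% and 3.51% in rDM 0% Ros, and 3.21%, 1.97% and 3.64% in rDM 0% HC/PR. Donor B had the lowest share in every medium. The share of ENSBTAG00000051079 was 1.41 to 1.46 times that of the transcript in donor B, 0.795 to 0.909 times in donor A and 0.789 to 0.998 times in donor C. The SD of log2 shares over the donors without HC/PR was 0.470 for the transcript and 0.063 for the corrected row, and without rosiglitazone it was 0.586 and 0.216. In rDM it was 0.393 and 0.201, and without insulin it was 0.349 and 0.324, so the spread between donors was smaller in the corrected row in each medium. For ENSBTAG00000019203 this was not so in rDM, where the SD was 0.516 in the corrected row and 0.467 in ENSBTAT00000025561.4, or in rDM 0% Ros, where it was 0.569 and 0.454. In rDM 0% Ins it was 0.473 and 0.709, and in rDM 0% HC/PR 0.215 and 0.291. The transcript's fold changes were 1.37, 0.891 and 0.860 without rosiglitazone, 1.33, 1.21 and 0.857 in rDM 0% Ins and 0.915, 0.818 and 0.893 in rDM 0% HC/PR, with an edgeR estimate of -0.14 without rosiglitazone (adjusted p = 0.896).

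**Figure D4:**
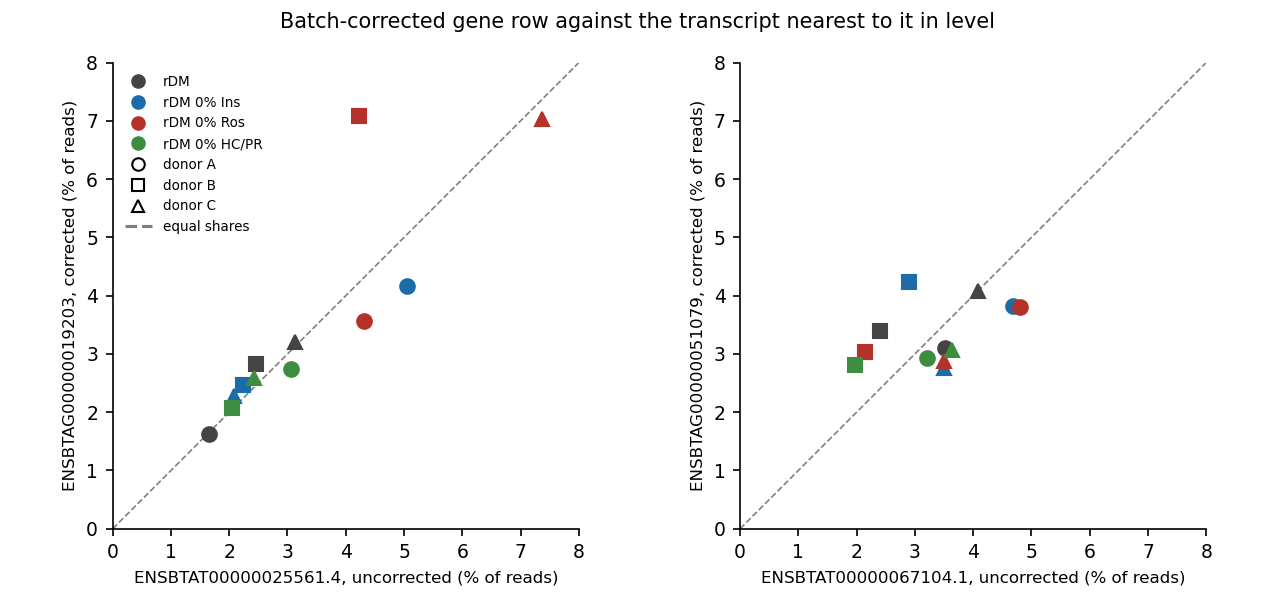
Share of reads in percent of each gene row in the batch-corrected table (vertical axis) against that of the transcript nearest in level in the uncorrected data (horizontal axis), with colours for media, symbols for donors and a dashed line for equal shares. The rosiglitazone-free library of donor B lies far above the line in the panel of ENSBTAG00000019203 (7.08% against 4.22%), and all 4 libraries of donor B lie above it in the panel of ENSBTAG00000051079.

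Depth and library pool also differed between the libraries. The libraries were made in 2 pools. The first held rDM and rDM 0% Ins of donors A and B and the rDM 0% Ros and rDM 0% HC/PR libraries of donor A, and the second held the other 6. The highest shares of ENSBTAG00000019203, in rDM 0% Ros of donors B and C, were both in the second pool. Within donor A all 4 libraries were in the first pool, and within donor C all 4 were in the second. In the corrected table the change without rosiglitazone was 2.18-fold in donor A and 2.20-fold in donor C, each within a pool, and 2.50-fold in donor B, whose pair crossed the pools. In the uncorrected transcript ENSBTAT00000025561.4 these values were 2.62, 2.36 and 1.72. The part of the pool in the result was not tested beyond these values and the fit with the pool. With the pool added to the block, the limma estimate was 1.17 with an adjusted p of 0.155, against 1.20 and 0.0556 without it. When all libraries were thinned to 295288 reads, the log2 change without rosiglitazone was 1.19 with an adjusted p of 0.0373.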

How the data were processed

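Libraries of PCR-amplified cDNA from polyA RNA were sequenced by the authors on a Nanopore sequencer, mapped with Minimap2 to the bovine transcriptome (ARS-UCD1.2 per the labels) and quantified with Salmon. The authors deposited the estimated counts (and TPM, not used) of 38030 transcripts per library, uncorrected. They also deposited CPM values for 22372 genes, summed with tximport and corrected for the batch with ComBat-seq. Of the CPM values, 100% were whole multiples of 1 read within 0.001 reads, which gave the counts used by edgeR and DESeq2. Of the identifiers, 0 matched the RefSeq table, so gene lists and cell type markers were not used here.

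Shares are CPM as a percent of the total. The main test was limma 3.58.1 (R 4.3.3) on log2(CPM + 1) over all 12 libraries with the donor as a block, a filter of 5 CPM in 3 libraries and a threshold of 0.05. The donors pair the libraries per the labels and the methods; same-donor libraries deviated together in the uncorrected transcripts (correlations 0.194 to 0.593 over 18 pairs) and not after correction (-0.345 to 0.0411). Since the table was corrected over all libraries before the test, the spread is not that of independent libraries. Alternatives covered the pseudocount, filter, block, pool, scaling, depth, edgeR 4.0.16, DESeq2 1.42.0 and each library or donor left out. The edgeR test of estimated counts, rounded to whole numbers, and ComBat-seq (sva 3.50.0) on transcripts were chosen after seeing the data. The tests were checked on simulated data.

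The members and lists were chosen with earlier results of these data known. The genes named are both members, the other row at the first rank, the next row by mean, and for each member the gene of highest and of lowest Pearson correlation among genes with a mean of at least 20 CPM. No exact test was run on single values, since 3 donors allow no two-sided p under 0.25.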

Additional observations from a re-analysis of the deposited data

How the results depend on the processing

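Values are log2 differences. The rise of ENSBTAG00000019203 without rosiglitazone kept its direction in 22 of 22 alternatives and passed the threshold in 7. Of these, 5 were settings, namely a pseudocount of 10 (1.20, adjusted p = 0.0325), no filter (1.20, 0.0358), no replicate block (1.20, 0.0317), the 6 libraries alone (1.20, 0.0125) and equal depth (1.19, 0.0373). It did not pass, at a like size, with a pseudocount of 0.1 (1.20, 0.118), TMM (1.13, 0.256), edgeR with TMM (1.16, 0.126) or DESeq2 (1.13, 0.473). Without replicate A its adjusted p was 0.0356, and without that donor's rosiglitazone-free library it was 0.028. It missed the threshold with any other library or donor left out, with adjusted p-values from limma of 0.103 (without rDM of donor C) to 0.272. The highest of these was without rDM of donor A, which also gave the smallest rise, 0.89. Without the replicate block the difference of ENSBTAG00000019203 between rDM 0% Ros and rDM 0% HC/PR, 1.20, also passed (adjusted p = 0.0495), and the block changed no other call of the 2 rows. For ENSBTAG00000051079 no comparison passed in any alternative.

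Small differences turned over. TMM shifted every gene alike, by -0.23 on average over the donors without insulin, and the median of all genes moved there from 0.19 to -0.02. Under it the change without insulin became -0.014 for ENSBTAG00000019203 and -0.21 for ENSBTAG00000051079, and that of ENSBTAG00000051079 between rDM 0% Ros and rDM 0% Ins became 0.022. The change of ENSBTAG00000051079 without insulin was -0.20 with edgeR and TMM, -0.19 with edgeR and DESeq2 size factors and -0.19 with DESeq2, and its difference between rDM 0% Ros and rDM 0% Ins was 0.00085 with edgeR and TMM. At equal depth the change of ENSBTAG00000019203 without HC/PR became 0.015. The limma values under TMM are those of the fit on CPM plus the shift of all genes in that comparison, so they say nothing particular to the 2 rows, and for the other turns the cause was not tested.

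With a library or donor left out, the values of ENSBTAG00000019203 ran from 0.89 to 1.54 without rosiglitazone, from -0.34 to 0.58 without insulin, from -0.38 to 0.22 without HC/PR, from 0.65 to 1.58 between rDM 0% Ros and rDM 0% Ins, from 0.91 to 1.61 between rDM 0% Ros and rDM 0% HC/PR and from -0.23 to 0.52 between rDM 0% Ins and rDM 0% HC/PR. Those of ENSBTAG00000051079 ran from -0.14 to 0.31 without insulin, from -0.33 to 0.069 without rosiglitazone, from -0.40 to -0.068 without HC/PR, from -0.35 to 0.03 between rDM 0% Ros and rDM 0% Ins and from -0.0021 to 0.25 between rDM 0% Ros and rDM 0% HC/PR. Between rDM 0% Ins and rDM 0% HC/PR they ran from 0.12 to 0.49.

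The counts of all genes called ran over the settings from 304 to 742 without rosiglitazone, from 106 to 296 without insulin and from 1 to 13 without HC/PR, the highest counts of the first 2 being without the replicate block. Between rDM 0% Ros and rDM 0% Ins they ran from 48 to 308, between rDM 0% Ros and rDM 0% HC/PR from 67 to 369, and between rDM 0% Ins and rDM 0% HC/PR from 41 to 230. With a library or donor left out they ran from 201 to 390 without rosiglitazone, from 9 to 165 without insulin and from 1 to 4 for HC/PR, the lowest of the first 2 being without donor C. The single library that lowered both most was rDM of donor B, without which they were 259 and 19. With a library or donor left out, the counts between rDM 0% Ros and rDM 0% Ins ran from 57 to 200. They ran from 81 to 222 between rDM 0% Ros and rDM 0% HC/PR, and from 12 to 155 between rDM 0% Ins and rDM 0% HC/PR. The shares from the uncorrected transcripts were not run as an alternative, because the transcripts were not paired with genes here.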
